A study of Homo sapiens with 38 samples.

Results

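The step from day 6 to day 8 of capacitation in mTeSR was described from 4 RNA-seq libraries out of 38, which were those whose titles named mTeSR, Geltrex and either day. Both days held 2 libraries each. Capacitation is the passage of naive human pluripotent stem cells, which resemble the epiblast before implantation, towards a state that can answer signals for embryonic lineages. The cells were Shef6, an established human embryonic stem cell line, here in the naive state, adapted to growth on serum-coated plates without feeder cells, and kept in PXGL medium. They were plated on Geltrex, a basement membrane extract, and grown in mTeSR, a commercial medium for primed pluripotent cells that contains FGF2 and TGFβ. Parallel cultures of the same experiment were grown in N2B27, a basal medium without added growth factors, or in E8, another medium for primed cells. All these groups came from 1 cell line and 1 experiment, Ex1, and the study's legends call such repeats technical in most panels and biological in another. The spread was estimated over all 38 libraries in 19 groups, some of which came from a second experiment, Ex2. The p-values thus measure only the spread between libraries of the same group and experiment.

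Naive cells express genes such as KLF17, SUSD2 and DNMT3L, and lose them on the way to formative and primed pluripotency while OTX2, ZIC2 and CDH2 come up. The core factors POU5F1, SOX2 and NANOG are kept along the way. Past the formative state, signalling through Nodal, WNT and BMP turns on genes of the primitive streak and of the endoderm, among which SOX17 and FOXA2 mark definitive endoderm and SOX17, GATA6 and PDGFRA also mark the hypoblast.

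The 4 libraries held 4430286 and 4554903 counts at day 6 and 3677825 and 3534869 counts at day 8, against 3038046 to 5612354 over the series. Values below are CPM, counts relative to the library total after scaling by TMM factors. Each pair of values is written with replicate 1 first, and log2FC stands for the log2 fold change of day 8 against day 6. A gene was taken to be at the floor where both libraries of a day held at most 3 counts, which corresponded to 0.647 to 0.840 CPM. Log2 CPM of the 2 libraries of a day correlated at r = 0.983 for day 6 and 0.979 for day 8 across genes, and libraries of different days at 0.972 to 0.975. The labelled cell type was borne out by its markers: POU5F1, SOX2, NANOG, SALL4, LIN28A and DPPA4 together came to 3317 and 3276 CPM at day 6 and to 3444 and 3496 CPM at day 8. Markers of other cell types were lower. The 6 fibroblast markers summed to 135 and 137 CPM at day 6 and 134 and 150.3 CPM at day 8 with LUM and DCN at 0 in all 4 libraries. The 4 neural markers stayed at 1.99 to 4.31 CPM in sum.

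The question of this comparison is how far the transcriptome still moved between day 6 and day 8 in mTeSR. The number of genes that changed was small and rises outnumbered falls. Of 16674 genes tested, 163 (0.978%) passed an adjusted p under 0.05 and a change of more than 2-fold in edgeR's quasi-likelihood test with Benjamini-Hochberg adjustment, the test behind every adjusted p given here. Of these, 103 were higher at day 8 (0.618%) and 60 were lower (0.36%). Without the fold threshold, the adjusted p was passed by 372 genes (2.23%), and an unadjusted p under 0.05 by 2128. The median log2 fold change over all genes was 0.00 at 2 decimals. None of the 163 genes overlapped between the days, but neither did 47.3% of all genes tested. The count rested on having 2 libraries a day: it was 74 without day 6 replicate 1, 90 without day 6 replicate 2, 94 without day 8 replicate 1 and 83 without day 8 replicate 2.

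**Figure D1:**
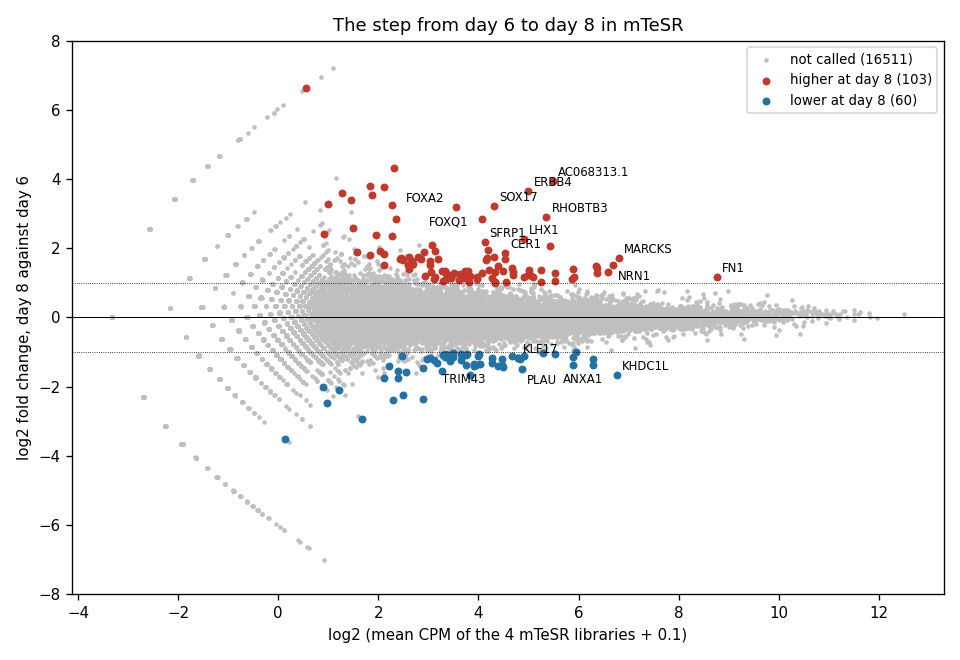
Each point is 1 of 16674 genes. The x axis gives log2 of the mean CPM of the 4 mTeSR libraries plus 0.1 and the y axis the log2 fold change of day 8 against day 6, with dotted lines at 1 and -1. The 103 genes higher at day 8 are red, the 60 lower genes are blue and genes that were not called are grey. Most called genes lie between 1 and 4 on either side of 0, and the outer arcs are genes with counts on 1 day only.

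Several endoderm genes were among the rises. Of 11 tested genes of a list of endoderm and hypoblast markers, 7 rose and none fell, against 0.618% of all genes tested that rose. The median log2FC of the list was 1.93, or 1.75 with 2 members set to their bound and 1 member at the floor on both days left out. This list and the others below were chosen with earlier results of these data known, so their counts are descriptions and not tests of enrichment. SOX17, a transcription factor needed for definitive endoderm, was at 3.54 and 4.095 CPM at day 6 and 35.8 and 35.3 CPM at day 8 (log2FC 3.21, SE 0.28, adjusted p = 1.46e-08). FOXA2, the forkhead factor that acts with it, went from 1.99 and 2.59 CPM to 21.99 and 20.1 CPM (log2FC 3.19, SE 0.38, adjusted p = 3.57e-06). Neither gene overlapped between the days, and the pair of day 8 libraries lay close together. CER1, a secreted antagonist of Nodal, BMP and WNT made by anterior endoderm, was at 12.4 and 7.54 CPM at day 6 and 39.6 and 33.02 CPM at day 8 (log2FC 1.87, SE 0.30, adjusted p = 0.000774). CXCR4, the chemokine receptor used to sort definitive endoderm, was already measurable at 17.9 and 18.1 CPM and reached 43.98 and 48.4 CPM (log2FC 1.36, SE 0.20, adjusted p = 6.98e-05). These 4 genes kept their calls in every alternative analysis.

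The other 3 called members of the list were low, and their calls depended on single libraries. HNF4A, a nuclear receptor of later endoderm, was at the floor at day 6 (0.664 and 0.431 CPM) and at 2.71 and 3.36 CPM at day 8, at least 4.64-fold higher. PDGFRA, the PDGF receptor of hypoblast and mesoderm, was at 1.99 and 1.29 CPM at day 6 and 6.79 and 5.88 CPM at day 8 (log2FC 1.93, adjusted p = 0.0101). GATA6, a zinc finger factor of hypoblast and endoderm, was at 3.097 and 3.02 CPM at day 6 and 8.69 and 10.4 CPM at day 8 (log2FC 1.63, adjusted p = 0.00285). HNF4A and PDGFRA lost their calls when any of the 4 libraries was left out, and GATA6 when either day 6 library or day 8 replicate 2 was left out. The count of risen members was then 4 or 5. GATA4, a partner of GATA6, (log2FC 0.74, adjusted p = 0.345) and HHEX, a homeobox gene of anterior endoderm, (log2FC 0.48, adjusted p = 0.729) did not pass. APOA1 and APOA2, apolipoproteins of yolk sac and liver, did not pass and lay at the floor on day 6, and members such as FOXA1, AFP and TTR were too low to be tested. More or fewer cells of a type and more or less RNA per cell cannot be told apart in such bulk libraries. The summed level of SOX17, FOXA2, GATA4 and GATA6 was 13.3 and 18.5 CPM at day 6 and 78.5 and 76.4 CPM at day 8, while the sum of the 6 pluripotency genes given above was also slightly higher at day 8.

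Genes of the primitive streak moved less uniformly. Of 10 tested members 2 rose (against 0.618% of all genes), none fell, and the median log2 fold change was 1.08, or 0.89 without 1 member at the floor on both days. The median rested on single libraries: it was 0.55 without day 8 replicate 1 and 1.38 without day 8 replicate 2. LHX1, a LIM homeobox factor of the streak and anterior mesendoderm, rose from 9.51 and 11.2 CPM to 42.9 and 56.5 CPM (log2FC 2.26, SE 0.31, adjusted p = 2.14e-05). EOMES, the T-box factor upstream of endoderm, was at 15.04 and 14.4 CPM at day 6 and 41.3 and 31.9 CPM at day 8 (log2FC 1.31, SE 0.26, adjusted p = 0.00291). It lost its call without either day 6 library or without day 8 replicate 1. TBXT (brachyury), the T-box factor of nascent mesoderm, was at 38.05 and 49.6 CPM at day 6 and 42.1 and 28.5 CPM at day 8 (log2FC -0.31, adjusted p = 0.595), so that the days overlapped. MIXL1, a homeobox gene of mesendoderm, was at 64.8 and 64.4 CPM at day 6 and 109 and 85.9 CPM at day 8 (log2FC 0.59, adjusted p = 0.0837).

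Few ligands and antagonists of the signalling pathways changed. Of 16 tested genes of Nodal and Activin signalling only CER1 was called, a rise, against 0.618% of all genes. NODAL itself was at 185 and 173 CPM at day 6 and 175 and 156 CPM at day 8 (log2FC -0.11, adjusted p = 0.864). LEFTY1, an antagonist and target of Nodal, was at 111 and 122 CPM at day 6 and 169 and 167 CPM at day 8 (log2FC 0.53, adjusted p = 0.11). FST, which binds Activin, passed the adjusted p but not the fold threshold (log2FC 0.97, adjusted p = 0.00674). Without day 8 replicate 2, CER1 was joined by FST and the count was 2. In the BMP list 1 of 14 tested genes rose, where the share over all genes was 0.618%: BMP2, a ligand made by endoderm among others, from 2.65 and 3.66 CPM to 12.2 and 14.8 CPM (log2FC 2.08, SE 0.31, adjusted p = 6.94e-05). No change was detected for its relative BMP4 at 91.4 and 89.9 CPM at day 6 and 103 and 87.3 CPM at day 8 (log2FC 0.07, adjusted p = 0.904). The same held for the BMP targets ID1 (log2FC 0.18, adjusted p = 0.636) and ID3 (log2FC -0.07, adjusted p = 0.912). ID2, another target, did not pass either (log2FC 0.60, adjusted p = 0.0585), although its days did not overlap. In the WNT list 2 of 16 tested genes rose, against the same 0.618%. SFRP1, a secreted WNT antagonist, was at 6.64 and 5.82 CPM at day 6 and 27.96 and 28.8 CPM at day 8 (log2FC 2.18, SE 0.21, adjusted p = 2.47e-08). LGR5, a receptor for R-spondins and a WNT target, was at the floor at day 6 (0.221 and 0.431 CPM) and at 2.99 and 3.92 CPM at day 8, at least 5.27-fold higher. Its call was lost when any 1 library was left out. FZD7, a WNT receptor of the primed marker list, rose from 36.7 and 36.6 CPM to 78.999 and 86.5 CPM (log2FC 1.17, adjusted p = 5.99e-06). CYP26A1, an enzyme that clears retinoic acid and is named here after its values were seen, was at 20.6 and 18.3 CPM at day 6 and 42.4 and 48.97 CPM at day 8 (log2FC 1.23, adjusted p = 0.00126).

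**Figure D2:**
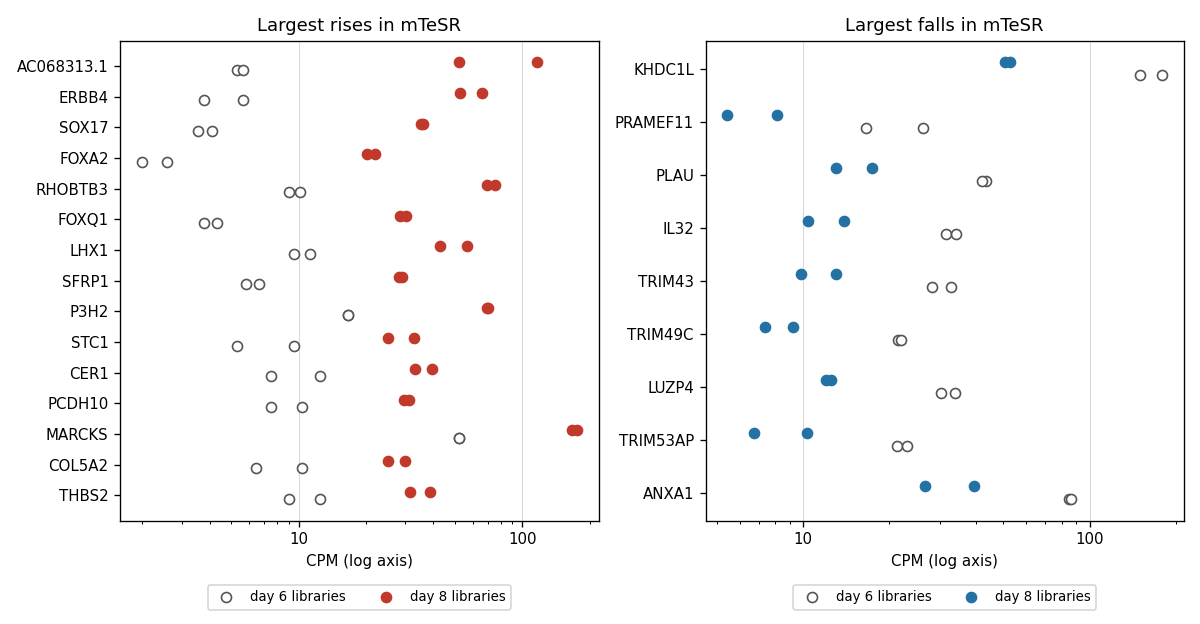
CPM on a log axis in each mTeSR library for the 15 genes with the largest rises (left) and for 9 of the 10 with the largest falls (right) among called genes of at least 20 CPM on the higher day. Open circles are the 2 day 6 libraries and filled circles the 2 day 8 libraries; the 2 days are apart for every gene shown. The widest spread within a day is that of AC068313.1 at day 8, at 117 and 52.3 CPM.

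Outside these lists, the largest rises among genes of at least 20 CPM were those of AC068313.1 and ERBB4. AC068313.1, a gene known by its clone name, was at 5.31 and 5.604 CPM at day 6 and 117 and 52.3 CPM at day 8 (log2FC 3.95, SE 0.80, adjusted p = 0.00346). Its 2 day 8 libraries differed by more than 2-fold, and the call was lost without day 6 replicate 1, day 6 replicate 2 or day 8 replicate 1, with adjusted p up to 0.095 over the alternatives. ERBB4, a receptor tyrosine kinase for neuregulins (GRCh38 chr2:211375717-212538841), was steadier and went from 3.76 and 5.604 CPM to 52.4 and 65.8 CPM (log2FC 3.65, SE 0.31, adjusted p = 4.05e-09). RHOBTB3, a protein with BTB domains (GRCh38 chr5:95713522-95824383), rose from 10.2 and 9.05 CPM to 69.2 and 75.3 CPM (log2FC 2.91, SE 0.22, adjusted p = 3.97e-10). FOXQ1, a forkhead transcription factor (GRCh38 chr6:1312098-1314758), was at 3.76 and 4.31 CPM at day 6 and 28.5 and 30.2 CPM at day 8 (log2FC 2.85, SE 0.32, adjusted p = 8.38e-07). In ERBB4, RHOBTB3 and FOXQ1 both day 8 libraries lay well above both day 6 libraries. MARCKS, a protein kinase C substrate that binds actin and the membrane, was the most abundant of these genes, at 52.2 and 51.9 CPM at day 6 and 175 and 167 CPM at day 8 (log2FC 1.72, SE 0.17, adjusted p = 3.25e-08). STC1, a secreted glycoprotein, and PCDH10, a protocadherin, reached 24.98 and 32.7 CPM and 29.6 and 31.1 CPM from 5.31 and 9.48 CPM and 7.52 and 10.3 CPM. PCDH10 lost its call without day 6 replicate 1.

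No gene of a matrix and integrin list of 19 tested members was called, where 0.978% of all genes were. Single genes outside it that act in the matrix or in adhesion rose. P3H2, which hydroxylates prolines of collagen, was at 16.6 and 16.6 CPM at day 6 and 69.2 and 70.2 CPM at day 8 (log2FC 2.07, SE 0.22, adjusted p = 1.36e-07). COL5A2, a chain of collagen V, rose from 6.41 and 10.3 CPM to 29.9 and 25.2 CPM (log2FC 1.71, adjusted p = 0.000213). THBS2, a thrombospondin, rose from 9.07 and 12.5 CPM to 38.5 and 31.3 CPM (log2FC 1.69, adjusted p = 0.000502). None of P3H2, COL5A2 and THBS2 overlapped between the days. FN1 (fibronectin), the most abundant gene called, was at 249 and 284 CPM at day 6 and 559.5 and 648 CPM at day 8 (log2FC 1.18, SE 0.20, adjusted p = 0.000379). CDH2 (N-cadherin), which replaces E-cadherin in mesendoderm, was at 46.01 and 50.4 CPM at day 6 and 124 and 112 CPM at day 8 (log2FC 1.29, SE 0.15, adjusted p = 1.99e-06). With FN1 it made up the 2 called members of 15 in the adhesion list, where 0.618% of all genes rose. In the matrix and integrin list COL4A1 (log2FC 0.78), COL4A2 (log2FC 0.74) and COL18A1 (log2FC 0.60) passed the adjusted p alone. Grouped after the values had been seen, 31 collagen chains summed to 825 and 809.7 CPM at day 6 and 994 and 1068 CPM at day 8, and 4 of them rose (COL5A2, COL13A1, COL11A1 and COL6A2), against the same 0.618%. COL11A1 and COL6A2 lost their calls when any 1 library was left out, and COL13A1 without either day 6 library or day 8 replicate 2. LAMA2, a laminin chain also chosen after its values were seen, rose from 10.8 and 10.99 CPM to 31.8 and 29.4 CPM (log2FC 1.48, adjusted p = 3.16e-05).

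Other genes singled out afterwards came from several families. CST1, CST2 and CST4, secreted inhibitors of cysteine proteases, were at the floor at day 6 and at least 14.1-, 12.002- and 10.1-fold higher at day 8. With CST3 they summed to 3.98 and 3.02 CPM and then to 24.98 and 29.9 CPM, and their near-identical copies can share reads. LIFR, a cytokine receptor, was at 14.6 and 12.9 CPM at day 6 and 36.1 and 37.8 CPM at day 8 (log2FC 1.42, adjusted p = 4.72e-06). CALB1, a calcium-binding protein, was at 55.96 and 53.9 CPM at day 6 and 123 and 149 CPM at day 8 (log2FC 1.31, adjusted p = 1.46e-08). NTS, the neurotensin precursor, was at 18.4 and 23.9 CPM at day 6 and 61.6 and 47.3 CPM at day 8 (log2FC 1.36, adjusted p = 8.69e-06). The days did not overlap for LIFR, CALB1 or NTS. Of 16 mitochondrial tRNA genes MT-TL1, MT-TF and MT-TV rose, against 0.618% of all genes, and the sum over the 16 went from 113 and 95.05 CPM to 203 and 225 CPM. None of 13 mitochondrial protein-coding genes was called, where 0.978% of all genes were, and their sum was 14758 and 14602 CPM at day 6 and 14665 and 11460 CPM at day 8. The tRNA genes adjoin abundant mitochondrial RNAs of the same transcript, so that their own counts are uncertain.

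A few primed and formative markers rose. Of 18 tested members 4 rose (against 0.618% of all genes), none fell, and the median log2 fold change was 0.34. CDH2 and FZD7 were 2 of them. TCF7L1, a repressor of WNT targets in pluripotent cells, was at 32.7 and 27.4 CPM at day 6 and 63.5 and 60.7 CPM at day 8 (log2FC 1.05, adjusted p = 0.000148). OTX2, the homeobox factor of formative pluripotency, was at 13.5 and 12.7 CPM at day 6 and 25.2 and 28.3 CPM at day 8 (log2FC 1.03, adjusted p = 0.00248). TCF7L1 and OTX2 were both close to the 2-fold threshold. Without day 6 replicate 2 both lost their calls and the count was 2, and without day 8 replicate 2 OTX2 did and the count was 3. ZIC2, a zinc finger factor of primed cells, (log2FC 0.73, adjusted p = 0.0024) and NLGN4X, a neuroligin, (log2FC 0.51, adjusted p = 0.049) passed the adjusted p alone.

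Part of the naive markers fell. Of 16 tested members 5 fell (against 0.36% of all genes), none rose, 15 had a log2 fold change below 0, and the median was -0.65. KHDC1L, a KH domain gene of the early embryo (GRCh38 chr6:73223544-73225770), had the largest fall among genes of at least 20 CPM. It was at 179 and 150.4 CPM at day 6 and 50.8 and 52.6 CPM at day 8 (log2FC -1.67, SE 0.17, adjusted p = 6.57e-08). In naive cells on Geltrex its mean was 619.96 CPM. SUSD2, a surface protein used to sort naive cells, was at 37.6 and 39.4 CPM at day 6 and 15.5 and 18.5 CPM at day 8 (log2FC -1.18, adjusted p = 0.000894). KLF17, a zinc finger factor of the naive state, was at 36.9 and 38.8 CPM at day 6 and 15.5 and 18.5 CPM at day 8 (log2FC -1.16, adjusted p = 0.0367) and had been at 117 CPM in naive cells. ALPG, a germ cell alkaline phosphatase, was at 46.2 and 35.6 CPM at day 6 and 16.6 and 20.99 CPM at day 8 (log2FC -1.12, adjusted p = 0.000973). In KHDC1L, SUSD2, KLF17 and ALPG both day 8 libraries lay below both day 6 libraries. DNMT3L, a cofactor of DNA methyltransferases, was at 79.2 and 86.4 CPM at day 6 and 43.2 and 39.5 CPM at day 8 (log2FC -1.002, adjusted p = 0.000157), which lies at the fold threshold. With 1 library left out, 2 to 3 of the 5 kept their calls: KLF17 lost its call without any of the 4, SUSD2 without day 8 replicate 1, ALPG without replicate 1 of either day and DNMT3L without replicate 2 of either day. TFCP2L1, a transcription factor of naive cells (log2FC -0.69), OOEP, an oocyte protein (log2FC -0.88), and NLRP7, a maternal-effect gene (log2FC -0.51), passed the adjusted p alone. DPPA3 (log2FC -0.19, adjusted p = 0.561), DPPA5 (log2FC -0.07, adjusted p = 0.94) and KHDC3L (log2FC -0.01, adjusted p = 0.997), which are expressed in naive cells and the early embryo, did not pass. Of the 12 general pluripotency genes none was called, where 0.978% of all genes were, and their log2 fold changes lay between -0.33 and 0.35.

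Several multicopy gene families that are active when the embryonic genome is switched on had lower sums at day 8. These families were grouped by symbol after the values had been seen, and since their copies are nearly identical the reads of a single member are uncertain, so that sums are given. The TRIM43, TRIM48, TRIM49, TRIM51, TRIM53 and TRIM64 genes, ring finger proteins in primate-expanded clusters, summed over 16 members to 174 and 163 CPM at day 6 and 71.7 and 62.7 CPM at day 8. Of them 6 were called lower, against 0.36% of all genes, and all 16 had a log2FC below 0, whereas 8283 of the 16674 genes tested were above 0. The PRAMEF genes, relatives of the tumour antigen PRAME, summed over 15 members to 81.8 and 76.7 CPM and then to 27.4 and 36.9 CPM, with 2 called lower against the same 0.36%. The MBD3L genes, relatives of the methyl-CpG-binding protein MBD3, summed over 5 members to 65.7 and 65.1 CPM and then to 29.05 and 33.3 CPM, with 3 called lower against the same 0.36%. In all 3 families the day 8 libraries lay below both day 6 libraries. TRIM43 itself was at 32.7 and 28.2 CPM at day 6 and 13.03 and 9.79 CPM at day 8 (log2FC -1.41, SE 0.28, adjusted p = 0.00241). The pseudogene TRIM53AP was at 21.2 and 23.1 CPM at day 6 and 10.3 and 6.72 CPM at day 8 (log2FC -1.37, adjusted p = 0.00188) and PRAMEF11 at 26.1 and 16.6 CPM at day 6 and 5.43 and 8.12 CPM at day 8 (log2FC -1.65, adjusted p = 0.00155). TRIM43 lost its call without day 6 replicate 1 or day 8 replicate 2, TRIM53AP without day 8 replicate 2 and PRAMEF11 without replicate 1 of either day. TRIM49C was at 21.5 and 21.98 CPM at day 6 and 7.33 and 9.23 CPM at day 8 (log2FC -1.39, adjusted p = 0.0299) and lost its call when any 1 library was left out. LUZP4, a leucine zipper protein of testis and tumours, was at 33.8 and 30.2 CPM at day 6 and 12.5 and 12.03 CPM at day 8 (log2FC -1.38, SE 0.20, adjusted p = 5.94e-05). CCNA1, cyclin A1 of germ cells and early embryos, was at 80.96 and 82.98 CPM at day 6 and 35.3 and 38.9 CPM at day 8 (log2FC -1.14, adjusted p = 3.57e-06). TPRX1, a PRD-like homeobox gene of the cleavage-stage embryo, fell as well (log2FC -1.12, adjusted p = 0.00568), a call lost without day 6 replicate 1 or either day 8 library. CCNA1 and TPRX1 were picked after their values were seen.

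The 250 bases before the RefSeq start of 4 of these genes are printed below, a pair from genes that rose and a pair from the multicopy genes that fell, to show the kind of upstream sequence on either side of the step. All are on GRCh38.p14, 5′ to 3′ on the gene's own strand: CER1 at chr9:14722734-14722983 on the minus strand, FOXQ1 at chr6:1311848-1312097 on the plus strand, TRIM49C at chr11:90030856-90031105 on the plus strand and MBD3L2B at chr19:7021432-7021681 on the minus strand. Capitals mark letters that matched 1 of 8 motifs searched on both strands, and the last base is the one before the start.
CER1: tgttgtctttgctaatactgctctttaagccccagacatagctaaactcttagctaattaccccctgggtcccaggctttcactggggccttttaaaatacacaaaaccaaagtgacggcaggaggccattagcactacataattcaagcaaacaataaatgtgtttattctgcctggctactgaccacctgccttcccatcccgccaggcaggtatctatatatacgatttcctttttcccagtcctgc
FOXQ1: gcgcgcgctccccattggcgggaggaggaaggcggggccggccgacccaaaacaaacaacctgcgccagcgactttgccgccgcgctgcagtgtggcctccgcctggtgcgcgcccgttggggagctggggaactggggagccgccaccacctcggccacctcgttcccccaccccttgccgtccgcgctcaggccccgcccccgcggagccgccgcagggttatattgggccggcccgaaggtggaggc
TRIM49C: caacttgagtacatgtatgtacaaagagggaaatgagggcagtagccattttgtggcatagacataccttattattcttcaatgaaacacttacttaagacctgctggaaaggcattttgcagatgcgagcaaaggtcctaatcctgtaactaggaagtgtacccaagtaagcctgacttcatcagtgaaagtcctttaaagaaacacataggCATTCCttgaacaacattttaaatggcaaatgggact
MBD3L2B: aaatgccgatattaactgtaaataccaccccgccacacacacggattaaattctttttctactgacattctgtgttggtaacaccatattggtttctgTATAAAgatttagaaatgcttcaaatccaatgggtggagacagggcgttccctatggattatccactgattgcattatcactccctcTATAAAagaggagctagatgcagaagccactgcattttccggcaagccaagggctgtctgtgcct

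In the TRIM49C window the match was CATTCC, the reverse complement of the TEAD motif GGAATG, beginning 37 bases before the start. In the MBD3L2B window TATAAA, the TATA box, began 152 and 65 bases before the start. No match lay in the CER1 and FOXQ1 windows. Over all 35116 RefSeq windows of this length, 10.7% held TATAAA in either direction, against 14 of 71 called genes that rose and had a window (19.7%) and 11 of 34 that fell (32.4%). GGAATG was held by 11.9% of all windows, 13 of the 71 (18.3%) and 6 of the 34 (17.6%). A called gene counted where any of its windows held the motif, so shares of genes and of windows are unlike measures. The T-box motif TCACACC stood in 2.76% of all windows and before 4.23% of risen genes and 5.88% of fallen genes. The remaining shares, in the same order, were 2.26%, 1.41% and 0 for the TCF/LEF motif ATCAAAG, 0.709%, 0 and 2.94% for the FOXH1 motif AATCCACA, and 9.17%, 9.86% and 5.88% for the GATA motif AGATAA. For the FOXA motif TGTTTAC they were 2.98%, 2.82% and 0, and for the DUX4 motif 0.0285%, 0 and 0. TATAAA was added to the search after the printed windows had been read, family members share upstream sequence, and the 3′ assay does not show which start was used, so that these shares are descriptions without a test.

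Other named falls were those of single genes of differing function. PLAU (urokinase), a secreted protease (GRCh38 chr10:73909177-73917496), was at 43.4 and 42.03 CPM at day 6 and 13.03 and 17.3 CPM at day 8 (log2FC -1.49, SE 0.33, adjusted p = 0.00813). This call was lost when any of the 4 libraries was left out. ANXA1, a phospholipid-binding annexin, was at 84.5 and 86.2 CPM at day 6 and 39.6 and 26.6 CPM at day 8 (log2FC -1.36, SE 0.19, adjusted p = 2.14e-05). IL32, a cytokine, was at 31.4 and 34.3 CPM at day 6 and 13.8 and 10.4 CPM at day 8 (log2FC -1.44, adjusted p = 0.00212). The days did not overlap for PLAU, ANXA1 or IL32, and IL32 lost its call without day 8 replicate 2. GATA3, a transcription factor of trophectoderm and amnion, was at 12.8 and 12.7 CPM at day 6 and 4.89 and 5.32 CPM at day 8 (log2FC -1.32, adjusted p = 0.0152). It was the 1 called member of 12 in that list, against 0.36% of all genes called lower, and lost its call without any 1 library. The 5 trophectoderm and amnion markers together came to 18.4 and 18.5 CPM at day 6 and 14.9 and 11.2 CPM at day 8. Among them GATA3 alone was lower in both day 8 libraries. The days overlapped for CDX2, TFAP2A and GABRP, and ISL1 went from 0.885 and 1.08 CPM to 4.89 and 1.40 CPM. Of 9 tested metallothioneins, small metal-binding proteins, 2 fell (against 0.36% of all genes), 7 passed the adjusted p with these 2 counted, and the list median was -0.55. MT1M was at 27.6 and 26.9 CPM at day 6 and 11.7 and 10.4 CPM at day 8 (log2FC -1.31, adjusted p = 0.000569), and MT1A, whose call was lost without day 8 replicate 2, at 17.9 and 17.2 CPM at day 6 and 8.96 and 5.88 CPM at day 8 (log2FC -1.24, adjusted p = 0.00346). GPRC5A, a retinoic acid-inducible receptor, was at 107 and 111 CPM at day 6 and 49.1 and 45.1 CPM at day 8 (log2FC -1.21, adjusted p = 3.25e-08). SFN, an epithelial 14-3-3 protein whose call was lost without day 6 replicate 1, was at 67.7 and 56.9 CPM at day 6 and 30.7 and 28.8 CPM at day 8 (log2FC -1.06, adjusted p = 0.000302). GPRC5A and SFN were added after their values were seen.

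**Figure D3:**
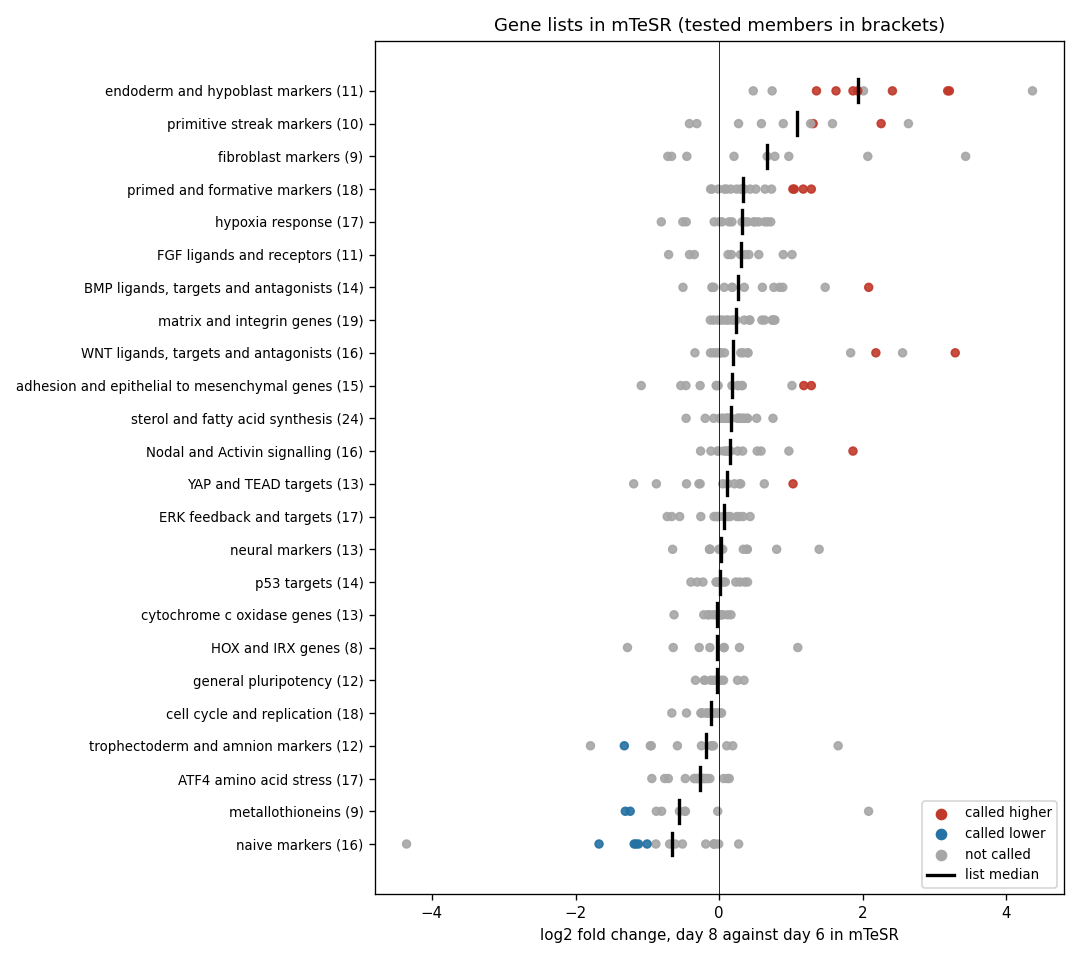
Log2 fold change of day 8 against day 6 in mTeSR for every tested member of 24 gene lists, ordered by the list median (black bar); members called higher are red, members called lower blue, and others grey. Endoderm markers (median 1.93) stand at one end and naive markers (median -0.65) at the other, and the farthest grey points are genes near the floor, whose fitted values are not bounds.

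Across all 24 lists, 335 of 373 distinct genes were tested, of which 18 rose and 8 fell, against 0.618% and 0.36% of all genes, and 13 lists held no call. Among these 13, genes of the response to amino acid shortage driven by ATF4 had a median of -0.27 with 14 of 17 below 0. ATF5 (log2FC -0.76, adjusted p = 0.00682), a transcription factor, TRIB3 (log2FC -0.94, adjusted p = 0.0212), a pseudokinase, and DDIT4 (log2FC -0.71, adjusted p = 0.0244), an inhibitor of mTORC1, passed the adjusted p alone. Hypoxia genes had a median of 0.32, which was 0.14 without day 8 replicate 2 and 0.36 without day 6 replicate 2. P4HA1, a collagen prolyl hydroxylase (log2FC 0.68, adjusted p = 1.47e-05), and PGK1, a glycolytic kinase (log2FC 0.64, adjusted p = 8.3e-05), passed the adjusted p alone, as did the glucose transporter SLC2A3 (log2FC 0.32, adjusted p = 0.049). Sterol and fatty acid synthesis genes had a median of 0.16 with 21 of 24 above 0. HMGCS1, an enzyme of the mevalonate pathway (log2FC 0.52, adjusted p = 0.00317), was among the members that passed the adjusted p alone. FGF genes had a median of 0.30 with 8 of 11 above 0. Passing the adjusted p alone were FGF2, the ligand that mTeSR also supplies (log2FC -0.34, adjusted p = 0.0385), and its receptor FGFR3 (log2FC -0.70, adjusted p = 0.00231). In the YAP and TEAD list AMOTL1, an angiomotin, rose from 13.3 and 17.5 CPM to 28.5 and 34.4 CPM (log2FC 1.03, adjusted p = 0.00241), a call lost without day 6 replicate 1 or day 8 replicate 2. NUAK2, a kinase of the same list, passed the adjusted p alone (log2FC -0.87, adjusted p = 0.0156) and was called lower without day 6 replicate 1, where it was the 1 call of the list (log2FC -1.04, adjusted p = 0.0299). ANKRD1, a muscle ankyrin repeat protein, did not pass (log2FC -1.19, adjusted p = 0.267). The list medians were -0.03 for HOX and IRX genes, 0.02 for neural markers, -0.12 for cell cycle genes, 0.01 for p53 targets and -0.03 for cytochrome c oxidase genes, and no member was called. With 1 library left out they spanned -0.27 to 0.25, -0.03 to 0.43, -0.15 to -0.07, -0.01 to 0.03 and -0.15 to 0.06 in this order. Fibroblast markers had a median of 0.67, or 0.44 with 1 member at its bound and 1 at the floor on both days left out, and no call.

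The same 2 days in the other media show which of these changes were shared. Between day 6 and day 8, N2B27 cells changed in 239 genes (1.43%), 195 higher (1.17%) and 44 lower (0.264%). E8 cells changed in 134 (0.804%), 86 higher (0.516%) and 48 lower (0.288%). The 3 steps share no library. The N2B27 count fell to between 119 and 156 without N2B27 day 6 replicate 1 or 2 or day 8 replicate 1. The E8 count was 45 without E8 day 6 replicate 1, 42 without day 6 replicate 2, 33 without day 8 replicate 1 and 478 without day 8 replicate 2, so that it depended heavily on the last of these libraries. Of the 103 rises in mTeSR 45 were also called in N2B27 (43.7% of the mTeSR rises and 23.1% of those in N2B27) and 24 in E8 (23.3% and 27.9%). For the 60 falls the overlap was 5 with N2B27 (8.33% and 11.4%) and 13 with E8 (21.7% and 27.1%). Of the 103 rises 89 had a positive change in N2B27 and 91 in E8, and of the 60 falls 44 had a negative change in N2B27 and 57 in E8. Over all 16674 genes tested, the change was above 0 for 7970 in N2B27 and for 8253 in E8. GATA3 was the 1 gene called in opposite directions, with N2B27. Genes called higher in all 3 media numbered 15 and included SOX17, FOXA2, ERBB4, LHX1, BMP2, STC1, RHOBTB3, MARCKS, CDH2 and FZD7. Those lower in all 3 were KHDC1L, GPRC5A and MAGEB2, a melanoma antigen family gene.

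Levels differed between media even where the direction was shared. At day 8 SOX17 stood at 35.8 and 35.3 CPM in mTeSR, 58.4 and 63.04 CPM in N2B27 and 6.56 and 4.47 CPM in E8, and FOXA2 at 21.99 and 20.1, 43.6 and 28.2 and 2.997 and 2.59 CPM in the same order. LHX1 was at 42.9 and 56.5 CPM in mTeSR against 151 and 118 CPM in N2B27 and 10.7 and 10.4 CPM in E8. mTeSR thus lay between the other media for these 3 genes on that day, without overlap. CER1 did not share this order: it was at 39.6 and 33.02 CPM in mTeSR and 34.8 and 28.5 CPM in N2B27, which overlapped. In E8 CER1 was at 2.62 and 2.59 CPM. The step of SOX17 itself was not distinguishable from that in N2B27 (difference in log2 fold change 1.18, SE 0.37, adjusted p = 0.165) or in E8 (0.27, SE 0.77, adjusted p = 0.965). In E8 SOX17 was at the floor at day 6 (0.724 and 0.683 CPM), so the fitted difference from E8 is uncertain. Of the BMP list, 7 of 14 genes rose in N2B27 (1.17% of all genes) against 1 in mTeSR (0.618%), and the difference was itself called for ID2, a BMP target. ID2 was at 33.2 and 32.8 CPM at day 6 and 53.8 and 46.5 CPM at day 8 in mTeSR and at 41.7 and 39.1 CPM followed by 150.5 and 104 CPM in N2B27 (difference -1.05, adjusted p = 0.0266).

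**Figure D4:**
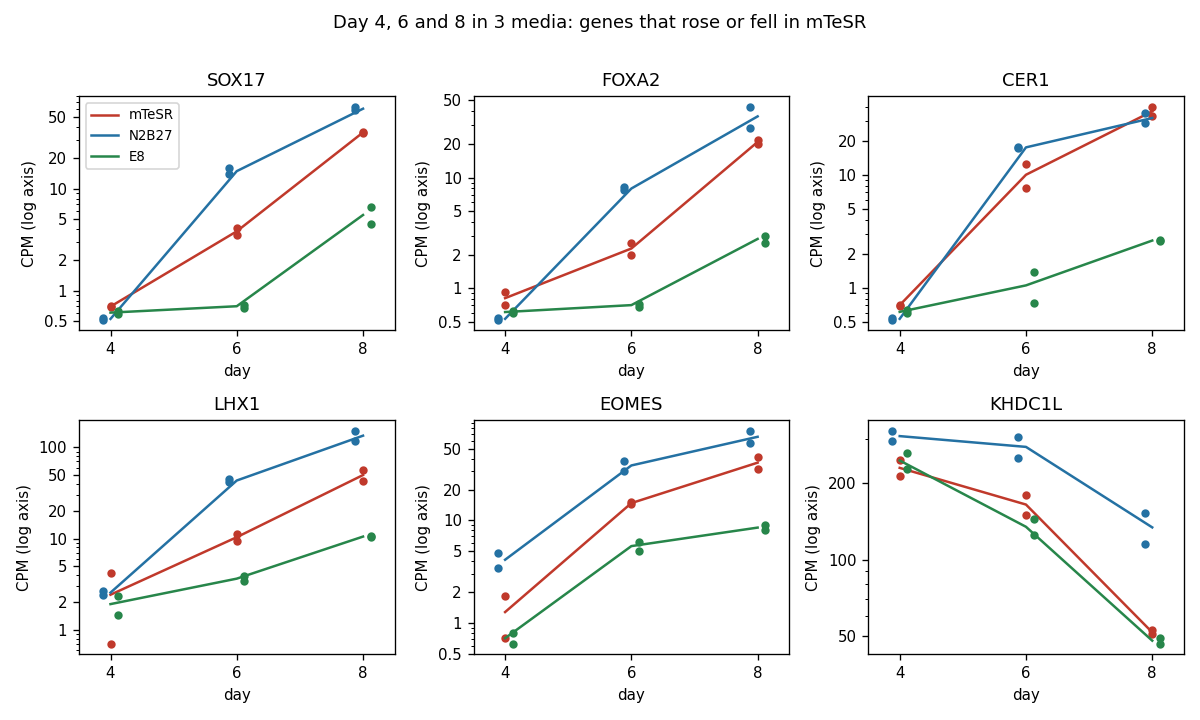
CPM on a log axis at day 4, day 6 and day 8 in mTeSR (red), N2B27 (blue) and E8 (green) for 6 genes; points are libraries and lines join group means. Values at or under 3 counts are drawn at that floor. SOX17, FOXA2, CER1, LHX1 and EOMES have higher means at day 8 than at day 6 in all 3 media with E8 lowest at day 8, and KHDC1L declines in each.

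Few genes were called as differing in their step between mTeSR and N2B27. With 2 libraries per group, genes that were not called may still have differed. The interaction was called in 51 genes (0.306%), 16 with the more positive change in mTeSR (0.096%) and 35 with the more negative (0.21%). The count was 24, 27, 13, 21 and 20 without mTeSR day 6 replicate 1, mTeSR day 6 replicate 2, mTeSR day 8 replicate 2, N2B27 day 6 replicate 2 and N2B27 day 8 replicate 2. NRN1, a neuritin that promotes neurite growth, was at 48.7 and 57.98 CPM at day 6 and 134 and 173 CPM at day 8 in mTeSR and at 68.6 and 52.4 CPM and then 41.2 and 57.98 CPM in N2B27 (difference 1.80, SE 0.28, adjusted p = 0.000865). In E8 NRN1 rose as well, from 21.5 and 18.7 CPM to 40.8 and 40.5 CPM (log2FC 1.02, adjusted p = 0.0101). Its steps in mTeSR and E8 differed by 0.50 in log2 fold change (adjusted p = 0.693). PFKFB4, a regulator of glycolysis, was at 21.5 and 29.7 CPM at day 6 and 38.5 and 45.9 CPM at day 8 in mTeSR, and at 13.96 and 13.7 CPM followed by 6.17 and 6.68 CPM in N2B27 (difference 1.82, adjusted p = 0.0258). Its difference was shared in direction by ALDOC, a glycolytic aldolase (1.41, adjusted p = 0.00407), SLC16A3, a lactate transporter (1.34, adjusted p = 0.0339), and EFNA3, an ephrin (2.43, adjusted p = 0.0216), all 3 chosen after their values were seen. AC008397.2, a gene known by its clone name, was at 19.7 and 17.7 CPM at day 6 and 31.5 and 34.1 CPM at day 8 in mTeSR and at 15.4 and 19.5 CPM and then 8.81 and 6.86 CPM in N2B27 (difference 1.98, adjusted p = 0.00966). For AC068313.1 the difference of 6.14 (adjusted p = 0.0081) included N2B27 day 6 libraries at 5.83 and 42.7 CPM, which disagreed with each other.

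In the other direction stood the 35 genes whose change was more negative in mTeSR. ANKRD1 was at 3.54 and 3.45 CPM at day 6 and 1.36 and 1.68 CPM at day 8 in mTeSR and at 7.29 and 7.66 CPM and then 43.4 and 33.8 CPM in N2B27 (difference -3.55, SE 0.56, adjusted p = 0.00163). GATA3 was at 18.1 and 18.1 CPM and then 39.4 and 33.96 CPM in N2B27, opposite to its fall in mTeSR (difference -2.33, SE 0.38, adjusted p = 0.0017). In E8 GATA3 fell as in mTeSR, from 28.7 and 28.9 CPM to 10.3 and 14.8 CPM (log2FC -1.21, adjusted p = 0.00321). S100A14, a calcium-binding protein of epithelia, was at 9.51 and 6.897 CPM at day 6 and 6.79 and 6.16 CPM at day 8 in mTeSR and at 10.003 and 9.67 CPM and then 33.5 and 37.8 CPM in N2B27 (difference -2.19, adjusted p = 0.00182). PLAU (difference -2.32, adjusted p = 0.0154), ANXA1 (-1.94, adjusted p = 9.89e-05) and TRIM43 (-1.89, adjusted p = 0.0081) belonged to them too. The differences of mTeSR from E8 were -0.25 for ANKRD1, -0.11 for GATA3 and -0.02 for S100A14. For PLAU, ANXA1 and TRIM43 they were -1.25, -1.17 and -0.94, and none of these differences from E8 was called. As sums, the TRIM cluster genes were at 201 and 205 CPM at day 6 and 197 and 239 CPM at day 8 in N2B27. In E8 they were at 269 and 270.2 CPM followed by 258 and 162 CPM, so that the days overlapped in N2B27 but not in mTeSR or E8. KLF17 was at 28.8 and 22.6 CPM and then 22.03 and 26.9 CPM in N2B27 (difference -1.10, adjusted p = 0.305) and at 38.4 and 45.8 CPM and then 43.8 and 32.5 CPM in E8 (difference -1.03, adjusted p = 0.499), and neither difference passed.

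Against E8 the interaction was called in 8 genes (0.048%), 1 more positive (0.006%) and 7 more negative (0.042%) in mTeSR. P3H2, the former, rose in mTeSR as given above and was at 9.18 and 12.7 CPM and then 11.2 and 16.5 CPM in E8 (difference 1.75, SE 0.34, adjusted p = 0.0269). Of the 7, ATF5 was a member of the ATF4 list. It was at 69.01 and 75.4 CPM at day 6 and 42.9 and 42.5 CPM at day 8 in mTeSR and at 55.3 and 56.2 CPM and then 82.8 and 113 CPM in E8 (difference -1.57, SE 0.23, adjusted p = 0.00145). ATF5 also differed from N2B27 (difference -1.40, adjusted p = 0.00186). INHBE, an inhibin beta chain induced by amino acid shortage, was at 22.6 and 23.1 CPM at day 6 and 15.5 and 12.03 CPM at day 8 in mTeSR and at 16.2 and 16.4 CPM and then 38.97 and 37.9 CPM in E8 (difference -1.97, adjusted p = 0.0041). ALDH1L2, a mitochondrial folate enzyme, had a difference of -1.66, adjusted p = 0.0133. FAM129A, a stress-induced protein also known as niban, was at 71.7 and 58.8 CPM at day 6 and 39.9 and 43.7 CPM at day 8 in mTeSR (difference -1.14, adjusted p = 0.0217). ACTA1, skeletal actin, was at 93.3 and 92.2 CPM at day 6 and 58.1 and 44.8 CPM at day 8 (difference -1.20, adjusted p = 0.0395). ACTC1, cardiac actin (-1.11, adjusted p = 0.0414), and CCNA1 (-1.05, adjusted p = 0.0135) completed the 8, and with ALDH1L2 were named after their values were seen. The count was 1 to 5 without mTeSR day 6 replicate 1 or 2, mTeSR day 8 replicate 2, E8 day 6 replicate 1 or 2 or E8 day 8 replicate 1, and 147 without E8 day 8 replicate 2.

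**Figure D5:**
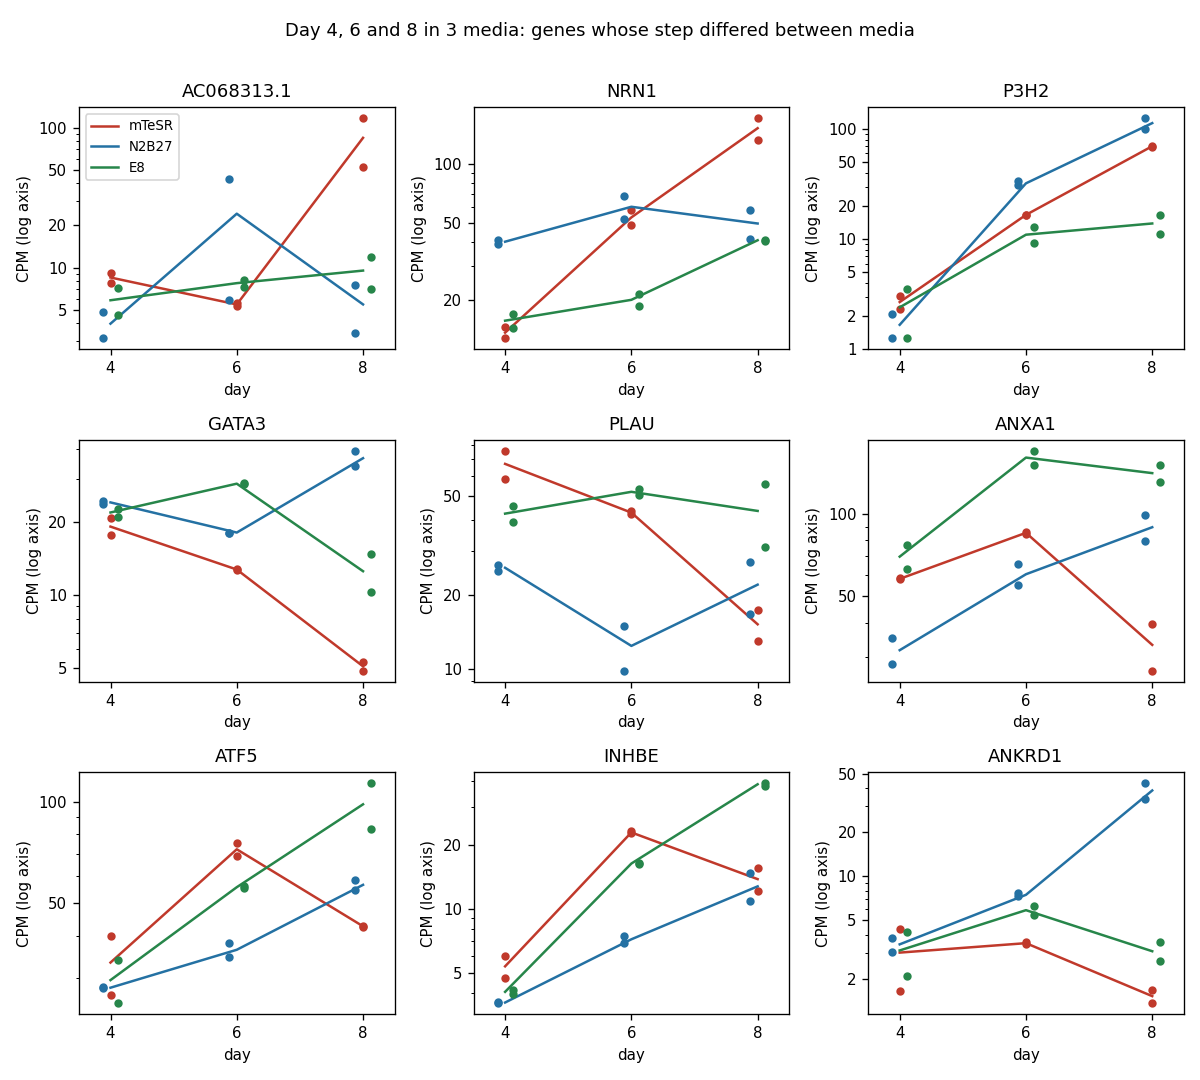
CPM on a log axis at day 4, day 6 and day 8 in mTeSR (red), N2B27 (blue) and E8 (green) for 9 genes whose step from day 6 to day 8 in mTeSR differed from that in N2B27 or E8; points are libraries and lines join group means. ATF5 goes from 69.01 and 75.4 CPM to 42.9 and 42.5 CPM in mTeSR while its means are higher at day 8 in the other media, and GATA3, PLAU and ANXA1 go down in mTeSR where their N2B27 means go up.

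More genes were called in the preceding step. Between day 4 and day 6 in mTeSR 486 genes (2.91%) were called, 382 higher (2.29%) and 104 lower (0.624%). The count was 240 without mTeSR day 4 replicate 1 and 290 without mTeSR day 6 replicate 2. Both steps use the day 6 libraries, so their values are given side by side only. SOX17 had no counts at day 4, CER1 was at the floor with a mean of 0.115 CPM, and FOXA2 was at 0 and 0.921 CPM. These 3 genes were higher at day 6 and higher again at day 8. MARCKS went from a mean of 11.7 CPM at day 4 to 52.1 and 171 CPM, and P3H2 from 2.68 to 16.6 and 69.7 CPM. SFRP1 had a mean of 7.45 CPM at day 4 and 6.23 CPM at day 6 (log2 fold change of day 6 against day 4 -0.26, adjusted p = 0.597), and 28.4 CPM at day 8. Among the falls, TRIM43 had means of 30.9 and 30.5 CPM at day 4 and day 6 (log2 fold change -0.02, adjusted p = 0.975) before its drop to 11.4 CPM, and the TRIM cluster sum at day 4 was 184 and 166 CPM. ANXA1 went from a mean of 57.8 CPM up to 85.4 CPM and down to 33.1 CPM. The mean of PLAU was lower at each later day, going from 67.01 to 42.7 and 15.2 CPM.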

How the data were processed

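RNA was measured by QuantSeq, which sequences the 3′ end of poly(A) transcripts, with 38 libraries in 19 groups of 2. The authors aligned single-end reads to hg38 with STAR 2.7.10a, quantified them with Salmon 1.9.0 through an nf-core pipeline and deposited raw counts per gene symbol; the annotation release and the strand setting are not given in the sources used here. Symbols were placed with GENCODE release 44 (GRCh38), which gave a position for 32 of 35 named genes, and promoters came from RefSeq. From the deposited counts, edgeR 4.0.16 (R 4.3.3) with TMM factors and filterByExpr was fitted to all 38 libraries, and genes were called at a Benjamini-Hochberg adjusted p under 0.05 and an absolute log2 fold change above 1. SEs were derived from the F statistic. The step in mTeSR was compared with the steps in N2B27 and E8 by interaction contrasts; DESeq2 1.42.0 was an alternative. Named genes were the 15 largest rises and 10 largest falls among called genes of at least 20 CPM without overlap, list members, and up to 4 genes per direction of each interaction. The members and lists were chosen with earlier results of these data known. Totals of 3534869 to 4554903 counts in the 4 libraries limit precision for genes near the floor. The script was tested on simulated counts. A few genes, 1 of the 10 falls among them, are not reported here.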

Additional observations from a re-analysis of the deposited data

Results flagged for a closer look

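The step from day 6 to day 8 in mTeSR differed from the step in N2B27 by an interaction test in edgeR in 51 genes. Among those of at least 20 CPM in 1 of the groups, the more positive changes in mTeSR were those of AC068313.1 (difference in log2 fold change 6.14), AC008397.2 (1.98), PFKFB4 (1.82) and NRN1 (1.80). The more negative changes were those of ANKRD1 (-3.55), GATA3 (-2.33), PLAU (-2.32) and S100A14 (-2.19). NRN1, ANKRD1, GATA3 and S100A14 passed under every alternative analysis run for this contrast, and the other 4 did not.

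Against E8 the interaction was called in 8 genes. Among those of at least 20 CPM in 1 of the groups, P3H2 (1.75) had the more positive change in mTeSR, and INHBE (-1.97), ATF5 (-1.57), ACTA1 (-1.20) and FAM129A (-1.14) the 4 most negative. ATF5 alone of these 5 passed under every alternative run. Groups of 2 libraries are too small for a test of single outlying libraries.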

How the results depend on the processing

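All counts below are genes called, and no named gene that was called changed sign under any alternative. For mTeSR day 8 against day 6 (163 genes), the count was 372 with no fold threshold, 264 with the compared libraries alone, 107 with DESeq2 and 74 to 94 with 1 library left out; it stayed between 141 and 197 with other scaling, filters or experiment Ex1 alone. Of 382 listed or named genes 73 were called, and 35 of these under every alternative. For N2B27 (239) it was 597 with no fold threshold, 144 with DESeq2 and 119 to 190 with a library left out. For E8 (134) it was 416 with no fold threshold, 258 without a filter, 2 with the compared libraries alone, 70 with DESeq2 and 33 to 478 with a library left out. For mTeSR day 6 against day 4 (486) it was 1472 with no fold threshold and 240 to 439 with a library left out. The difference from N2B27 (51) was called in 86 genes with no fold threshold, 111 without a filter, 184 with the compared libraries alone and 13 to 45 with a library left out. The difference from E8 (8) was called in 85 genes without a filter, 5 in experiment Ex1 alone, 2 with the compared libraries alone, 15 with DESeq2 and 1 to 147 with a library left out. The cause was not tested in any of these. The labels do not say whether libraries of the same replicate number belong together. Deviations of same-numbered libraries from their group means correlated between the days at -0.034 in mTeSR, -0.008 in N2B27 and 0.039 in E8. Over 5599 genes above 32 CPM the values were -0.086, -0.130 and 0.090 in the same order. With the replicate number as a block in all groups the mTeSR count was 162, and with the compared libraries alone it was 272 for mTeSR, 359 for N2B27, 149 for E8, 178 for the difference from N2B27 and 7 for that from E8. Where a library is left out, the remaining one is assumed to vary like the other groups. Depth limits calls near the floor, such as HNF4A, LGR5 and PDGFRA.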
